A study of Mus musculus with 11 samples.

Results

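The 10 chaperone genes of the endoplasmic reticulum (ER) lumen described here are Hspa5, Hsp90b1, Hyou1, Calr, Canx, Dnajb9, Dnajb11, Dnajc3, Sdf2l1 and Sil1. They were chosen by name and function, with earlier results of these data known, and are 10 of the 54232 genes in the count files. All 10 were among the 13303 genes with enough counts to be tested. Hepatocytes secrete most plasma proteins, and each of these proteins is threaded into the ER and folded there by chaperones. Hspa5 encodes BiP, the Hsp70 of the ER, which binds unfolded chains in a cycle of ATP binding and release. The DnaJ proteins of the ER (Dnajb9, Dnajb11 and Dnajc3) hand clients to BiP and start its ATP hydrolysis, and Hyou1 and Sil1 exchange its nucleotide so that the client is let go. Hsp90b1 encodes GRP94, the Hsp90 of the ER. Calr and Canx encode calreticulin and the membrane-anchored calnexin, which hold glycoproteins by their sugars, and Sdf2l1 is a partner of the protein made from Dnajb11. In the unfolded protein response, IRE1 splices the Xbp1 mRNA into a form that encodes an active transcription factor, and XBP1 and ATF6 are known to induce many of these genes.

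Hepatocytes were isolated by perfusion and density centrifugation from adult male C57BL/6 mice. All animals carried floxed Xbp1 alleles. Xbp1 LKO mice also carried Cre under the albumin promoter, which is active in hepatocytes, and Xbp1 fl/fl mice without Cre were the controls. Both genotypes received chow or, for up to 6 weeks, the HFS diet (high fat sugar), a Western diet with fructose and glucose in the drinking water. On chow there were 3 RNA-seq libraries of Xbp1 fl/fl and 2 of Xbp1 LKO hepatocytes, and on HFS 3 of each genotype, 11 in all. Each HFS cohort of 6 mice was pooled into 3 libraries, so an HFS library averages over animals. The chow-fed Xbp1 LKO group has only 2 libraries here, which limits every comparison that uses it.

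Total counts were 19191032 to 23888401 per library. Normalised expression is given as CPM, the count of a gene scaled to the size of its library with TMM factors. Xbp1, the targeted gene, had 95.7 to 135 CPM in the 5 Xbp1 LKO libraries and 194 to 301 CPM in the 6 Xbp1 fl/fl libraries, counted over the whole gene and not over the deleted exon alone. All 23 hepatocyte markers found in the files were detected in each library, and their summed level was 177502 to 222010 CPM in Xbp1 fl/fl and 76608 to 130936 CPM in Xbp1 LKO libraries. Other cell types were at low levels but were not even between groups. Summed markers of endothelial cells were 62.0 to 156 CPM in Xbp1 fl/fl and 37.1 to 47.9 CPM in Xbp1 LKO libraries on chow, and 120 to 209 and 98.5 to 168 CPM on HFS, with none of the 13 genes at 0. Stellate cell markers summed to 18.4 to 62.3 and 13.6 to 16.1 CPM on chow and to 32.6 to 58.6 and 37.7 to 77.9 CPM on HFS, with 0 to 2 of 12 genes at 0 in a library. Macrophage markers summed to 24.4 to 105 and 28.1 to 42.0 CPM on chow and to 47.1 to 65.7 and 65.9 to 115 CPM on HFS, with none of the 15 genes at 0. Cholangiocyte markers summed to 29.9 to 36.4 and 24.1 to 29.0 CPM on chow and to 22.2 to 42.0 and 32.2 to 41.8 CPM on HFS, with 0 to 4 of 9 genes at 0. Markers of T cells, NK cells and neutrophils reached 5.95 CPM, with 2 to 11 of 12 genes at 0. B and plasma cell markers summed to 10.9 to 171 CPM, and 169 of the 171 CPM, in the second Xbp1 LKO library on chow, were Derl3, an ER degradation gene. The antibody genes Ighm and Igkc reached 6.02 CPM (the third Xbp1 fl/fl library on chow) and 4.98 CPM (the third Xbp1 LKO library on HFS), Jchain reached 1.15 CPM, and Cd79a, Cd79b and Ms4a1 were at 0.186 CPM or less in every library. Fewer cells of a type and less RNA per cell cannot be told apart in such libraries, and the part of these marker levels in the results on genotype and diet was not tested.

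The promoters of the 10 genes were searched for the ER stress response element (ERSE), a site known for the action of ATF6, XBP1 and NF-Y, since XBP1 was the factor removed. Windows of 300 bases, from 250 bases before to 50 bases after the start, were found in the RefSeq table (GRCm38.p6) for 8 of the 10 genes, with no entry for Hyou1 or Sil1. For Dnajb9 the RefSeq start lies 258 bases inside the GENCODE gene. The window of Dnajb9 thus lies wholly inside that gene, and the bases before its GENCODE start were not searched. The element was written as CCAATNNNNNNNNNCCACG and searched on both strands. It was found in 5 of the 8 windows, against 0.137% of the 27025 genes with a window and 0.171% of the 9934 tested genes among them. Among other tested genes with a window, it was in 1 of 25 ER folding genes and 1 of 13 disulfide isomerase and Ero1 genes. It was in 0 of 17 cytosolic and mitochondrial relatives of the chaperones. The 10 genes were chosen by function and many are known targets of XBP1 and ATF6, so their share is a description and no independent result. A second element, ERSE-II (ATTGGNCCACG), was found in Dnajb11, just after the start, and in 0.0444% of all genes, and the UPRE core TGACGTGG was found in 0 of 8 windows and in 0.714% of all genes. The UPRE core was in 1 of the 25 other ER folding genes and 2 of the 13 isomerase and Ero1 genes. No match in the 8 windows overlapped another. A match is a description of letters and not a measured binding site. The 5 genes with an ERSE were Hspa5 (chr2:34772005-34772063, plus strand), Calr (chr8:84847055-84847113, minus strand), Hsp90b1 (chr10:86705513-86705676, minus strand, 2 matches), Canx (chr11:50325780-50325838, minus strand) and Dnajc3 (chr14:118937807-118937865, plus strand). The stretches around the matches are shown on the strand of each gene, because these are the letters that the 5 genes share, with the fixed bases of the element in capitals.
Hspa5: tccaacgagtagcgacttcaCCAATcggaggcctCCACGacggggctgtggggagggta
Calr: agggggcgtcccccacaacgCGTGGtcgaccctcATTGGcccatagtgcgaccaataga
Hsp90b1: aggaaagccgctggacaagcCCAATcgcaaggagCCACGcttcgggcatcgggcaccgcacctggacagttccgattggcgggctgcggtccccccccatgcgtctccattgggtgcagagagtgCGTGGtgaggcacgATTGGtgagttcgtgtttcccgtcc
Canx: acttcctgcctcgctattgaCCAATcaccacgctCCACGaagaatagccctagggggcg
Dnajc3: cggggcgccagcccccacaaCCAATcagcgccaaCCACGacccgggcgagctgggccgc
Counted from the RefSeq start, the element of Hspa5 lay 65 to 47 bases before it, which is inside the GENCODE gene, since the RefSeq start lies 120 bases inside that gene, and that of Dnajc3 lay 105 to 87 bases before the start. In Calr it lay on the opposite strand, 162 to 144 bases before the start. Hsp90b1 held one copy on each strand.

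Compared per kilobase of merged exons, the level of Calr was highest in chow-fed Xbp1 fl/fl hepatocytes at 353 ± 72.4 CPM per kilobase (SD, n = 3). Hspa5 had 293 ± 105 and Hsp90b1 275 ± 40.5 CPM per kilobase (SD, n = 3), and these 3 neighbours did not differ beyond their spread. Canx followed with 107 ± 13.3 and Dnajc3 with 81.5 ± 11 CPM per kilobase. Dnajb11 (45.5 ± 5.64), Sdf2l1 (42.9 ± 8.25) and Hyou1 (41.4 ± 13.0) did not differ beyond their spread. Sil1 had 22.6 ± 2.47 and Dnajb9 15.3 ± 5.98 CPM per kilobase, the lowest of the 10. The first 5 genes and the last held their ranks in all 4 groups, except that with the longest transcript in place of merged exons Hspa5 and Hsp90b1 changed places in the chow Xbp1 fl/fl and HFS Xbp1 LKO groups. In HFS-fed Xbp1 LKO hepatocytes the levels ran from 249 ± 11 CPM per kilobase for Calr to 10.8 ± 4.61 for Dnajb9 (SD, n = 3).

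One library stood apart for these genes. The second chow-fed Xbp1 LKO library held the highest value of all 11 for Hspa5, Hsp90b1, Calr and Sdf2l1, 4 of the 10, where 16.6% of all tested genes were highest in it. Relative to the first chow-fed Xbp1 LKO library, Sdf2l1 was 5.11 times, Hspa5 3.36 times, Hyou1 2.81 times and Hsp90b1 2.66 times as high. Dnajb9 and Sil1 were at 1.10 and 1.03 times. The median log2 ratio of the 2 libraries was 1.05 over the 10 genes and 0.01 over all tested genes, and 60% of the 10 genes but 1.92% of all tested genes were more than 2 times as high in the second library. The 10 genes took 0.950% of all counts in it and 0.285% to 0.495% in the other 10 libraries. The same library was also highest for Ddit3, the stress-induced factor CHOP, at 132 CPM against 23.6 in the first, and for Atf3, a stress-induced transcription factor, at 43.0 against 6.53. Alb took 1.67% of its counts, the lowest share of the 11 libraries. No label gives a reason for these values, although the number of this library in its file name differs from that in its title. The tests of the 10 genes that it changes are given with and without it.

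**Figure D1:**
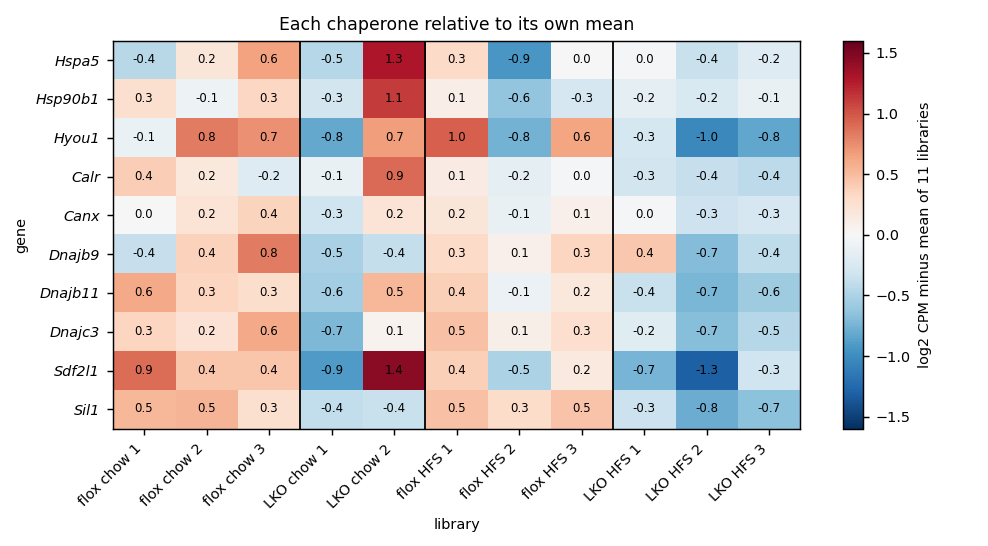
Each cell gives the log2 CPM of 1 gene (rows) in 1 library (columns) minus the mean of that gene over the 11 libraries, with vertical lines between the 4 groups (flox stands for Xbp1 fl/fl and LKO for Xbp1 LKO). All 10 values are negative in the first chow-fed LKO library and in the second and the third HFS-fed LKO libraries, the second chow-fed LKO library is highest for Hspa5, Hsp90b1, Calr and Sdf2l1, and the Sil1 row is negative in all 5 LKO libraries.

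Sil1 was the member with the clearest genotype difference, and it was lower in Xbp1 LKO hepatocytes on both diets. Sil1 (ENSMUSG00000024357) lies on the minus strand of chromosome 18 from 35266396 to 35499780 (GRCm38) and encodes a nucleotide exchange factor of BiP. Its level on chow was 81.9, 82.9 and 67.8 CPM in the Xbp1 fl/fl and 43.1 and 44.3 CPM in the Xbp1 LKO libraries. After HFS feeding it had 78.2, 69.2 and 77.6 CPM in Xbp1 fl/fl and 44.6, 32.7 and 35.9 CPM in Xbp1 LKO libraries. All 5 Xbp1 LKO libraries were below all 6 Xbp1 fl/fl libraries, with a wide gap between them. On chow Sil1 fell by 43.6% (log2 fold change -0.83, SE 0.15, adjusted p = 0.0102, quasi-likelihood test of edgeR, adjusted by Benjamini-Hochberg over 13303 genes). With HFS it fell by 49.7% (log2 fold change -0.99, SE 0.13, adjusted p = 0.00267 by the same edgeR test). Without the second chow-fed Xbp1 LKO library the chow difference was -0.85 with an adjusted p of 0.0924 in edgeR, where the remaining library of that group is assumed to vary like the others, and that of the HFS diet was -0.99 with an adjusted p of 0.00334. Within groups Sil1 had an SD of 0.16 in log2 CPM, the lowest of the 10 genes, although without the 2 chow-fed Xbp1 LKO libraries its SD of 0.172 was level with the 0.170 of Canx.

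Dnajc3 followed the same order of libraries without passing the test. It encodes p58IPK, a co-chaperone that carries clients to BiP (ENSMUSG00000022136, chromosome 14, 118937976 to 118981697, plus strand). Its level was 404, 371 and 481 CPM on chow in Xbp1 fl/fl and 193 and 329 CPM in Xbp1 LKO libraries. With HFS it was 437, 339 and 381 CPM in Xbp1 fl/fl and 276, 198 and 230.5 CPM in Xbp1 LKO libraries. Again no Xbp1 LKO library reached the lowest Xbp1 fl/fl library, although 329 and 339 CPM lay close together. The log2 fold change was -0.68 on chow (SE 0.23, edgeR adjusted p = 0.128) and -0.72 on the HFS diet (SE 0.20, edgeR adjusted p = 0.0776). DESeq2, which called 8.32% of genes on chow and 6.81% on the HFS diet, called it lower on both (adjusted p = 0.0424 and 0.0117). Dnajc3 and Sil1 were the 2 members with all Xbp1 LKO libraries below all Xbp1 fl/fl libraries over both diets, where 4.34% of all tested genes showed this, and no member showed the reverse, where 3.19% of genes did.

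**Figure D2:**
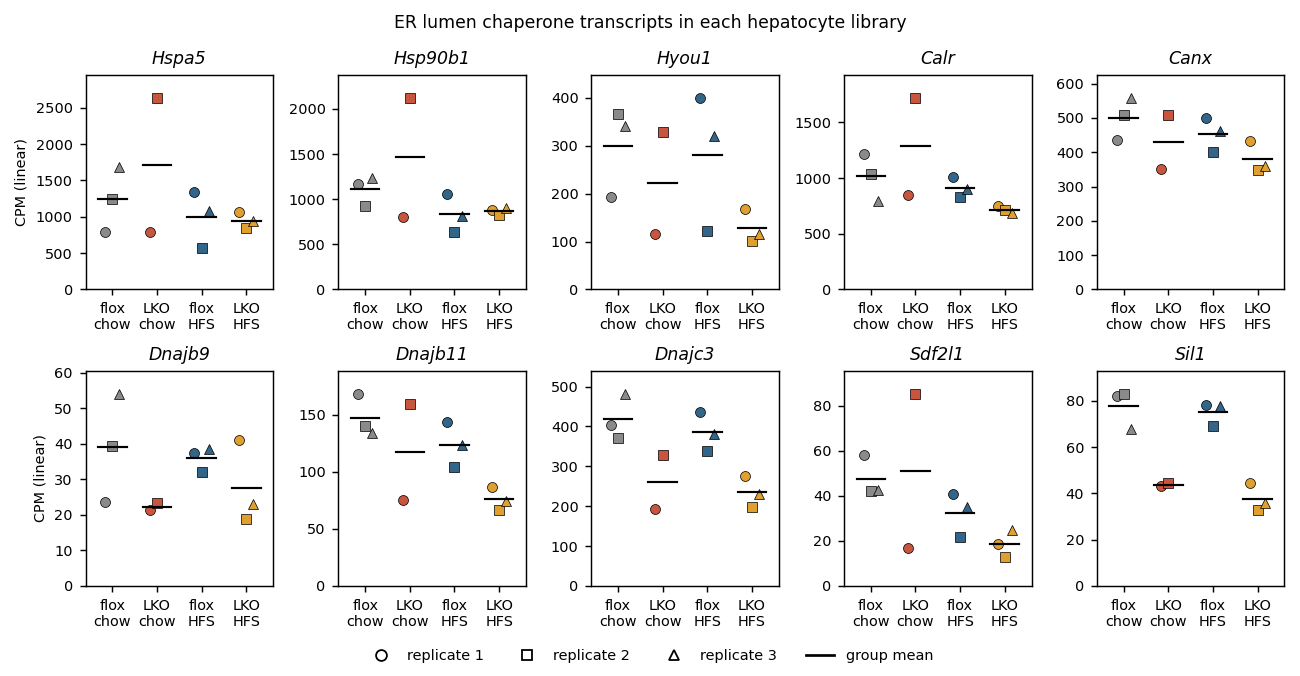
CPM on a linear axis from 0 for each of the 10 genes, with 1 point per library (marker shape gives the replicate number), colours for the 4 groups and bars at the group means. For Sil1 and Dnajc3 all LKO points lie below all flox points, while for Hspa5, Hsp90b1, Calr and Sdf2l1 the second chow-fed LKO library is the highest point of the panel.

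On chow, the comparison of genotypes asks what loss of XBP1 does in hepatocytes of unchallenged mice. Of the 10 chaperone genes, 1 (Sil1) was lower and 0 were higher past the threshold of 0.05, against 4.75% of all tested genes, 3.02% lower and 1.73% higher. In Dnajb9, Dnajc3 and Sil1 no library of one genotype overlapped with the other, all lower in Xbp1 LKO, where 15.9% of all tested genes did the same. The median log2 fold change of the 10 genes was -0.28 and that of all tested genes 0.00, and 6 of the 10 values were negative. With library totals in place of TMM factors, which moves the median of all genes by 0.33, 4 of the 10 were negative.

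Among the chaperones that bind clients directly, Hspa5 (ENSMUSG00000026864, chromosome 2, 34771970 to 34777547, plus strand) had 796, 1238 and 1685 CPM on chow in Xbp1 fl/fl and 786 and 2639 CPM in Xbp1 LKO libraries. Its 2 Xbp1 LKO values enclosed all 3 controls, and the log2 fold change of 0.47 had an SE of 0.47 (edgeR adjusted p = 0.645). Hsp90b1 had 1171, 925 and 1234 CPM against 799.8 and 2126 CPM, also on both sides of the controls. Calr (ENSMUSG00000003814, chromosome 8, 84841850 to 84846934, minus strand) had 1215, 1035 and 799 CPM in Xbp1 fl/fl and 852 and 1724 CPM in Xbp1 LKO libraries, with a log2 fold change of 0.34 (SE 0.26, edgeR adjusted p = 0.521). Canx, the membrane-bound relative of Calr (ENSMUSG00000020368, chromosome 11, 50293961 to 50325673, minus strand), had 435, 509 and 559 CPM against 351 and 508 CPM. For each of these 4 the first chow-fed Xbp1 LKO library was within or under the range of the controls and the second was within or above it.

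The co-chaperones were mixed in the same way. Hyou1, a large Hsp70 relative that exchanges the nucleotide of BiP, had 192, 366 and 341 CPM in chow-fed Xbp1 fl/fl and 117 and 328 CPM in chow-fed Xbp1 LKO libraries. Dnajb11, which encodes the soluble DnaJ protein ERdj3, had 168, 140.3 and 134 CPM against 74.8 and 159 CPM. Sdf2l1 (ENSMUSG00000022769, chromosome 16, 17130138 to 17132383, minus strand) had 58.1, 42.2 and 42.4 CPM against 16.7 and 85.2 CPM, the widest split of any member. Dnajb9 (ENSMUSG00000014905, chromosome 12, 44205559 to 44210326, minus strand) encodes ERdj4, a DnaJ protein that also helps remove misfolded proteins, and had 23.6, 39.4 and 54.0 CPM against 21.2 and 23.4 CPM. Its log2 fold change of -0.80 (SE 0.35) did not pass (edgeR adjusted p = 0.229), and the nearest values of the 2 genotypes differed little.

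Left out of the fit, the second chow-fed Xbp1 LKO library changed the picture on chow for most members. That library was singled out by the high values of these same genes, so leaving it out lowers their fold changes by construction. This leaves 1 library against 3 controls, and the counts and medians below are a description and not a test of the 10 genes. Without the second library all 10 log2 fold changes were negative, with a median of -0.86, where 52.1% of all tested genes were negative with a median of -0.02. They were -1.51 for Sdf2l1, -1.36 for Hyou1, -1.12 for Dnajc3, -0.98 for Dnajb11, -0.88 for Dnajb9, -0.85 for Sil1, -0.66 for Hspa5, -0.52 for Canx, -0.48 for Hsp90b1 and -0.26 for Calr. With library totals, Calr became positive and 9 of 10 stayed negative. Then 0 of 10 passed in edgeR, where 0.498% of all tested genes did, 0.282% lower. At an unadjusted p under 0.05 there were 6 of the 10, all lower, where 6.39% of genes were lower, and DESeq2 called 4 of them lower (Dnajb11, Dnajc3, Sdf2l1 and Sil1), where it called 3.36% of genes, 2.4% lower. Without the first chow-fed Xbp1 LKO library instead, Hspa5 was at 1.09, Hsp90b1 at 0.94, Sdf2l1 at 0.84 and Calr at 0.76 on the log2 scale, none past the threshold, and Sil1, the 1 member that passed, at -0.81 (edgeR adjusted p = 0.0407), where 5.48% of all tested genes passed.

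**Figure D3:**
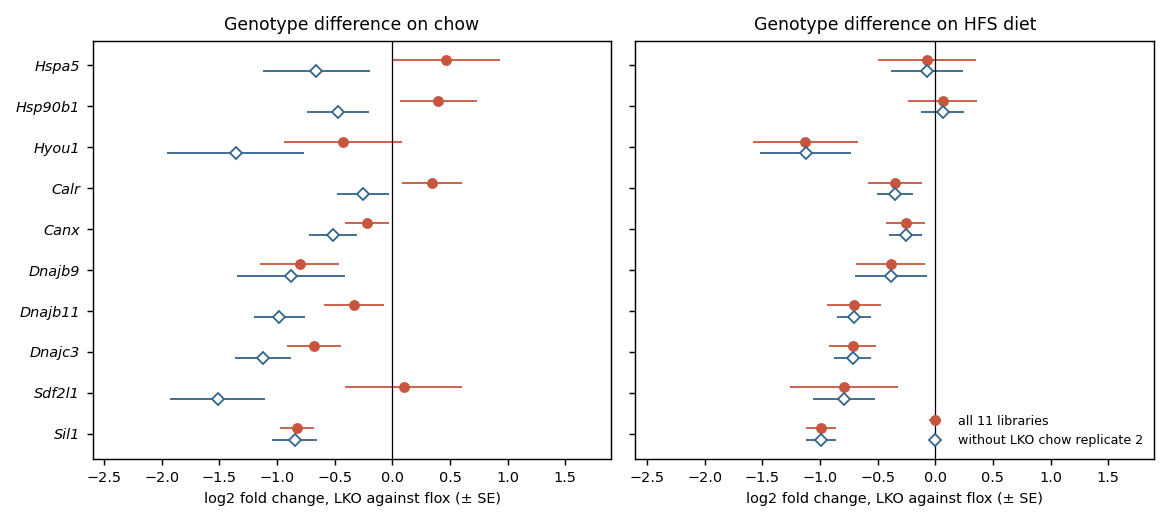
Log2 fold change of Xbp1 LKO against Xbp1 fl/fl libraries with its standard error on chow (left) and on the HFS diet (right), from edgeR, for all 11 libraries (filled) and without the second chow-fed LKO library (open). On chow, Hspa5, Hsp90b1, Calr and Sdf2l1 lie right of 0 with all libraries and left of it without that library, while Sil1 hardly moves, and on the HFS diet filled and open points coincide.

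The genotypes were compared again on the HFS diet, and there 9 of the 10 log2 fold changes were negative with a median of -0.55, and the median of all tested genes was 0.01. Past the threshold, 1 of the 10 (Sil1) was lower and 0 were higher, against 4.08% of all tested genes, 2.16% lower and 1.92% higher. In Calr, Dnajb11, Dnajc3 and Sil1 the highest Xbp1 LKO library was below the lowest Xbp1 fl/fl library, where 12.5% of all tested genes did the same. Library totals moved the median of all genes by 0.26 and left 8 of 10 negative, with Hspa5 at 0.18.

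Dnajb11 (ENSMUSG00000004460, chromosome 16, 22857845 to 22879634, plus strand) had 143, 104 and 124 CPM in HFS-fed Xbp1 fl/fl and 86.5, 66.5 and 74.7 CPM in HFS-fed Xbp1 LKO libraries. Its log2 fold change was -0.70 (SE 0.24, edgeR adjusted p = 0.132). Calr had 1009, 831 and 901 CPM against 752, 711 and 689 CPM, a small gap with log2 fold change -0.35 (SE 0.23, edgeR adjusted p = 0.510). The groups of both genes did not overlap, but neither difference passed the test. Leaving out either chow-fed Xbp1 LKO library leaves only the other in that group, which then adds no spread. The fit without the first and the fit without the second thus share nearly the same estimate of spread and the same HFS libraries. Their calls were bound to be alike and are not independent checks. The second library had 2.13 times the Dnajb11 and 1.71 times the Dnajc3 of the first. Leaving out either one thus lowers the spread of both genes by construction. Without the second chow-fed Xbp1 LKO library, which enters this comparison only through the shared estimate of spread, edgeR called 3 of the 10 lower, where it called 4.78% of genes, 2.56% lower: Dnajb11 with an adjusted p of 0.0259, Dnajc3 with 0.0318 and Sil1. Without the first one it called the same 3, where it called 4.75% of genes. DESeq2 called 3 of the 10 lower with all libraries (Dnajb11, Dnajc3 and Sil1), where it called 6.81% of genes, 3.69% lower, and without the second chow-fed Xbp1 LKO library 4, where it called 7.78% of genes, 4.27% lower.

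The largest fold change on the HFS diet was that of Hyou1 (ENSMUSG00000032115, chromosome 9, 44379490 to 44392369, plus strand), which had 401, 122 and 319 CPM in Xbp1 fl/fl and 169, 101 and 116 CPM in Xbp1 LKO libraries. Its log2 fold change was -1.13 with an SE of 0.46 (edgeR adjusted p = 0.224), and the second Xbp1 fl/fl library lay among the Xbp1 LKO values. Sdf2l1 had 40.7, 21.9 and 34.9 CPM against 18.7, 12.6 and 25.0 CPM (log2 fold change -0.79, SE 0.47, edgeR adjusted p = 0.435), and here the same Xbp1 fl/fl library lay below one of the Xbp1 LKO libraries. Canx had 499, 401 and 463 CPM against 432, 347 and 361 CPM, and Dnajb9 37.4, 32.1 and 38.6 CPM against 40.9, 18.9 and 23.0 CPM. Their groups overlapped.

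Hspa5 and Hsp90b1 had log2 fold changes closest to 0 on the HFS diet. Hspa5 had 1338, 565 and 1079 CPM in Xbp1 fl/fl and 1059, 844 and 936 CPM in Xbp1 LKO libraries, with a log2 fold change of -0.07 (SE 0.42, edgeR adjusted p = 0.964). Hsp90b1 (ENSMUSG00000020048, chromosome 10, 86690209 to 86705509, minus strand) had 1056, 633 and 812 CPM against 880.0, 828 and 907 CPM, with a log2 fold change of 0.06 (SE 0.30, edgeR adjusted p = 0.951). In both genes the 3 Xbp1 LKO libraries lay inside the range of the controls. The standard errors of both leave room for a difference in either direction.

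The diet comparison asks what HFS feeding does within a genotype. The HFS libraries are pools of animals and the chow libraries are not described as pools, so diet and pooling cannot be told apart. In Xbp1 fl/fl hepatocytes 0 of the 10 genes passed, where 0.428% of all tested genes did, and 0 had an unadjusted p under 0.05, where 8.95% did. DESeq2 called 0 of 10, where it called 1.17% of genes. All 10 log2 fold changes were negative but small, from -0.55 for Sdf2l1 to -0.05 for Sil1, with a median of -0.15. Only Sdf2l1 had HFS libraries all below the chow libraries (40.7, 21.9 and 34.9 against 58.1, 42.2 and 42.4 CPM), where 7.34% of all tested genes did. In Xbp1 LKO hepatocytes 0 of 10 passed, where 0.0601% of all tested genes did, and DESeq2 called 0 of 10, where it called 1.5% of genes. At an unadjusted p under 0.05 there were 4 of the 10, all lower on the HFS diet, where 5.16% of genes were. Calr alone had HFS libraries all below the chow libraries (752, 711 and 689 against 852 and 1724 CPM), where 14.4% of all tested genes did. Of the 10 values 9 were negative, with a median of -0.69, but without the second chow-fed Xbp1 LKO library 2 of 10 were negative and the median was 0.14. Without the first one, the log2 fold changes were -1.27 for Calr and -2.19 for Sdf2l1, with the second library alone as the chow group. That library was singled out by its high values of these same genes, so leaving out either one shifts the differences by construction.

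Whether the genotype difference itself changed with diet was tested as an interaction. It passed for 0 of the 10 genes and for 0% of all tested genes in edgeR, where 816 genes, 6.13%, but 0 of the 10 had an unadjusted p under 0.05. DESeq2 called 31 genes, 0.223%, and 0 of the 10. The smallest unadjusted p among the 10 was 0.0717, for Calr, and 9 of the 10 interaction terms were negative, with a median of -0.35. Without the second chow-fed Xbp1 LKO library the p of Calr was 0.738, and 2 of the 10 terms were negative, with a median of 0.34, and 0 passed.

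The other genes of ER protein folding were compared from a list of 32, of which 29 were tested. On chow 6 of the 29 were lower and 0 higher in Xbp1 LKO, where 3.02% of all tested genes were lower, and the median log2 fold change was -0.39. With HFS 3 were lower and 0 higher, where 2.16% of all tested genes were lower, and the median was -0.31. Dnajc10, the DnaJ protein that reduces disulfides before degradation, had 30.2, 27.8 and 36.5 CPM on chow in Xbp1 fl/fl and 17.0 and 14.8 CPM in Xbp1 LKO libraries, and 27.9, 32.8 and 26.3 against 21.8, 16.5 and 20.1 CPM on the HFS diet (log2 fold changes -0.99 and -0.58, edgeR adjusted p = 0.00776 and 0.0469). Cnpy3, a co-chaperone of GRP94, was lower on both diets at -1.04 and -1.22 (edgeR adjusted p = 0.0131 and 0.0036). Fkbp9, a prolyl isomerase, passed on chow (-0.82, edgeR adjusted p = 0.00398), and Uggt1, which returns glycoproteins to calnexin and calreticulin, passed on the HFS diet (-0.90, edgeR adjusted p = 0.0320). In Dnajc10, Cnpy3 and Fkbp9 the second chow-fed Xbp1 LKO library did not stand apart from the first: Fkbp9 had 19.2 and 19.6 CPM and Cnpy3 24.1 and 26.1 CPM. These genes were named for their small p on chow, which favours genes whose libraries are close within a group. Other genes of the list did move: without the second library Manf went from -0.05 to -1.14 and Creld2 from -0.63 to -1.34 on chow. Without that library 1 of the 29 (Fkbp9) was lower past the threshold on chow in edgeR, where 0.282% of genes were, 10 were lower at an unadjusted p under 0.05, where 6.39% were, and the median was -0.36.

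Of 17 protein disulfide isomerase and Ero1 genes tested, 3 were lower and 0 higher on each diet (Erp44, P4hb and Txndc5), where 3.02% of all tested genes were lower on chow and 2.16% on the HFS diet, with medians of -0.43 on chow and -0.50 on the HFS diet. Summed over the list, the first chow-fed Xbp1 LKO library had 2309 CPM and the second 3797 CPM. Without the second, the chow log2 fold change went from 0.52 to -0.44 for Pdia4 and from -0.43 to -1.29 for Pdia6. That of P4hb hardly moved, from -1.59 to -1.63. P4hb, the most abundant of the 3 lower genes, had 2034, 2217 and 1962 CPM in chow-fed Xbp1 fl/fl and 671 and 703 CPM in chow-fed Xbp1 LKO libraries. Without the second of these, 1 of the 17 (Erp44) was lower past the threshold on chow, where 0.282% of genes were, and the median was -0.56.

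The cytosolic and mitochondrial relatives of these chaperones served as a contrast within the same families. Of 22 such genes 21 were tested, and 0 passed on either diet in edgeR. Of all tested genes 4.75% passed on chow and 4.08% on the HFS diet, so 0 of 21 is near the share of all genes. Median log2 fold changes were 0.11 on chow and 0.00 on the HFS diet. At an unadjusted p under 0.05 in edgeR there were 2 higher and 2 lower on chow and 0 on the HFS diet. In either direction, 19.3% of all tested genes were under it on chow and 17.5% on the HFS diet. Hspa9, the mitochondrial Hsp70, had 616, 641 and 644 CPM in chow-fed Xbp1 fl/fl and 807 and 1004 CPM in chow-fed Xbp1 LKO libraries (log2 fold change 0.51, edgeR adjusted p = 0.0974). It had 579, 562 and 618 CPM against 632, 687 and 871 CPM on the HFS diet (0.32, edgeR adjusted p = 0.292), so within each diet its Xbp1 LKO libraries lay above the controls without passing the test. Of all tested genes 15.4% had all Xbp1 LKO libraries above the controls on chow and 13.6% on the HFS diet. Without the second chow-fed Xbp1 LKO library, the chow values were 0.35 for Hspa9 and 0.28 for Dnaja3, and the median of 22 tested genes was 0.08. The other genes of the list with the smallest p were Dnaja3 (0.62) and Bag1 (-0.32) on chow and Bag3 (-0.30) and Hspa4 (0.21) on the HFS diet, on the log2 scale. Of the 23 hepatocyte markers, 21 had negative log2 fold changes on chow (median -0.57) and 22 on the HFS diet (median -0.61). In edgeR 4 were lower past the threshold on chow and 2 on the HFS diet, where 3.02% and 2.16% of all tested genes were. Lower levels in Xbp1 LKO were thus not particular to the ER lists.

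**Figure D4:**
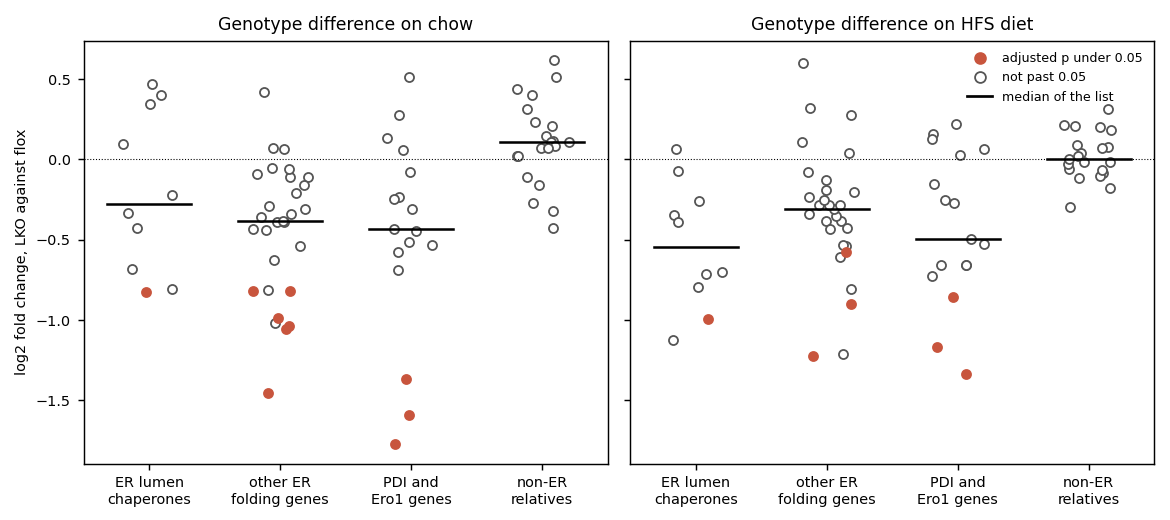
Log2 fold change of Xbp1 LKO against Xbp1 fl/fl libraries on chow (left) and on the HFS diet (right) for the tested genes of 4 lists, 1 point per gene, filled where the adjusted p was under 0.05, with a bar at the median of the list. Among the 4 lists, filled points are all below 0 and lie in the ER lists (1 chaperone on each diet, 6 and 3 other folding genes, 3 and 3 isomerases). The 21 non-ER relatives have 0 filled points on both diets, where 4.75% of all tested genes passed on chow and 4.08% on the HFS diet. Hepatocyte markers, most of which were also lower, are not drawn.

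Among 15 tested regulators of the unfolded protein response, 2 were higher (Atf3 and Ddit3) and 2 were lower (Xbp1 and Ppp1r15b) on each diet, where 1.73% of all tested genes were higher and 3.02% lower on chow and 1.92% higher and 2.16% lower on the HFS diet. Ddit3 had 4.52, 5.89 and 6.67 CPM in chow-fed Xbp1 fl/fl, 23.6 and 132 CPM in chow-fed Xbp1 LKO, 5.10, 2.95 and 5.0 CPM in HFS-fed Xbp1 fl/fl and 15.8, 13.5 and 44.5 CPM in HFS-fed Xbp1 LKO libraries. Without the second chow-fed Xbp1 LKO library 1 of the 15 was higher and 0 lower on chow, where 0.217% and 0.282% of genes were, and the adjusted p of Ddit3 there was 0.125 in edgeR. All its Xbp1 LKO libraries were above all its controls.

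The genes outside the 10 whose levels followed the mean of the 10 most closely over the 11 libraries were Manf (Pearson r = 0.94), Pdia6 (0.93), Cad (0.93), Creld2 (0.91) and Atg13 (0.91), out of 11120 genes compared in log2 CPM. Manf and Creld2 encode ER stress-induced secreted proteins and Pdia6 an ER disulfide isomerase, while Cad encodes an enzyme of pyrimidine synthesis and Atg13 a factor of autophagy. The 11 libraries share their groups, and the second chow-fed Xbp1 LKO library, the highest for the mean of the 10 at 0.55 above the average in log2 CPM, weighs in each of these values, which are given as a description.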

How the data were processed

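RNA of isolated hepatocytes was sequenced as single-end reads. The deposited files hold whole-number counts per Ensembl gene, which the authors neither normalized nor filtered. The sources differ on how these counts were made: the study's methods name kallisto, tximport and DESeq2 and a stranded mRNA kit, while the submitters' processing notes name cutadapt 1.13, STAR, HTSeq 0.6.1p1, DESeq2 and mm10 and the labels a total RNA kit. The annotation release is not given in the sources used here. Symbols, positions and exon lengths came from GENCODE M21 on GRCm38, which held 54165 of 54232 identifiers. Reads could be misassigned between Hsp90b1 or Dnajb11 and the genes that overlap them, or between Calr and the pseudogene Calr-ps. Each of these neighbours had at most 382 counts over the 11 libraries. The sources do not say how reads in shared bases were assigned, so reads lost there were not measured.

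The deposited counts were filtered (filterByExpr, minimum count 10) and scaled by TMM in edgeR 4.0.16 (R 4.3.3), and all 11 libraries entered 1 quasi-likelihood fit with a term per group. The estimate of spread is thus shared by the pooled HFS libraries and the chow libraries, which are not described as pools. Genotype was compared on each diet and diet in each genotype, and the interaction was tested, with Benjamini-Hochberg adjustment over all tested genes and a threshold of 0.05. Alternatives were DESeq2 1.42.0, its size factors or library totals as the scaling, no filter or one of 1 CPM in 3 libraries, only the groups compared, a replicate block and leaving out each library. DESeq2 and library totals without the second chow-fed Xbp1 LKO library were chosen after seeing the data. Log2 CPM used a prior count of 2. The code was tested on simulated counts. Within groups, pairs of libraries gave a chi-square of 28.0 to 102 per degree of freedom, so no counting intervals are given, and no 2 libraries were duplicates. The p-values measure the spread between these libraries. Groups came from the sample labels, and replicate numbers from the titles, where same-numbered libraries are different animals.

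The members and lists were chosen with earlier results of these data known. Genes named are the 10 members, Xbp1, Alb, for each other list up to 3 genes with the smallest unadjusted p in each genotype comparison, and the 5 genes most like the mean of the members, and Derl3 was named after its values were seen. Lists were described by counts and medians and were not tested as sets. Protein data, quantitative PCR and protein sequences were not analysed here.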

Additional observations from a re-analysis of the deposited data

How the results depend on the processing

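Sil1 was called lower on the HFS diet under every alternative run, and on chow under every alternative but leaving out the second chow-fed Xbp1 LKO library in edgeR. The number of the 10 genes called on chow was 1, against 2 in DESeq2, 3 with no filter on low counts (5.79% of all genes), 0 to 1 with each library left out in turn, 4 in DESeq2 without the second chow-fed Xbp1 LKO library and 0 with library totals without it (1.1%). On the HFS diet it was 1, against 3 in DESeq2, 5 with no filter (5.53%), 3 with only the groups compared (6.48%), 1 to 3 with each library left out and 4 in DESeq2 without that library. For the diet difference it was 0 in both genotypes, against 1 in Xbp1 fl/fl (1.92%) and 6 in Xbp1 LKO (2.78%) with no filter, and 0 to 2 in Xbp1 LKO with each library left out. The interaction called 0, against 1 with no filter (1.03%). Calls over all genes also moved: 632 on chow became 1115 in DESeq2, 3000 with library totals (2685 of them higher, against 230 of 632), 1507 with no filter, 233 with only the groups compared and 69 without the second chow-fed Xbp1 LKO library. On the HFS diet 543 became 981 in DESeq2, 1483 with library totals (1288 higher, against 256), 1438 with no filter and 809 with only the groups compared. The diet calls of 57 and 8 became 175 and 208 in DESeq2 and 499 and 722 with no filter, and the 0 of the interaction became 31 and 269. The cause of these shifts was not tested.

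Directions that changed belonged to differences that had not passed in the edgeR fit of all 11 libraries with the filter and TMM scaling. Some of these differences were called under an alternative, as was that of Sdf2l1 for diet in Xbp1 LKO with only the second chow-fed library left in its group. On chow, log2 fold changes with each library left out ran from -0.66 to 1.09 for Hspa5, -0.48 to 0.94 for Hsp90b1, -1.36 to 0.13 for Hyou1, -0.26 to 0.76 for Calr, -0.52 to 0.020 for Canx, -0.98 to 0.11 for Dnajb11 and -1.51 to 0.84 for Sdf2l1. On the HFS diet they ran from -0.35 to 0.20 for Hspa5 and -0.10 to 0.27 for Hsp90b1. For the diet difference in Xbp1 fl/fl they ran from -0.44 to 0.27 for Hyou1, -0.37 to 0.20 for Dnajb9 and -0.14 to 0.0064 for Sil1. In Xbp1 LKO they ran from -1.48 to 0.28 for Hspa5, -1.29 to 0.13 for Hsp90b1, -1.35 to 0.15 for Hyou1, -0.42 to 0.12 for Canx, -0.089 to 0.52 for Dnajb9, -1.07 to 0.029 for Dnajb11, -0.49 to 0.29 for Dnajc3 and -2.19 to 0.18 for Sdf2l1. Library totals turned Canx to 0.12 and Dnajb11 to 0.017 on chow and Hspa5 to 0.18 on the HFS diet. Of the levels per kilobase, 15 of 40 moved by more than 1 SD with the longest transcript in place of merged exons.

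Same-numbered libraries of different groups did not deviate together (mean r -0.03 over 15 pairs, from -0.32 to 0.28, against 0.02 over 30 other pairs), so the numbers were not used to pair the samples in the main fit. With so few libraries per group, this check cannot exclude a shared day of isolation or sequencing. With the replicate number as a block 1 of the 10 genes was called on chow and 1 on the HFS diet, as without it, where 3.42% and 3.1% of all genes were called with title numbers and 3.67% and 3.22% with file numbers. The block of title numbers gave 19 calls over all genes for diet in Xbp1 LKO and that of file numbers, where the second chow-fed Xbp1 LKO library has number 3, gave 53, against 8 without a block. Under the latter block Sdf2l1 on chow was -0.30.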

Other observations

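The lowest values of the 10 genes also gathered in a few libraries. The second HFS-fed Xbp1 LKO library had the lowest value of all 11 for 6 of the 10 genes, where 8.73% of all tested genes were lowest in it. The second HFS-fed Xbp1 fl/fl library was lowest for 2 of the 10 (Hspa5 and Hsp90b1), where 7.46% of all tested genes were. The third chow-fed Xbp1 fl/fl library was highest for 3 of the 10, where 15.2% of all tested genes were highest in it.

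Within groups the 10 genes differed widely in how much they varied. The within-group SD of log2 CPM was 0.74 for Sdf2l1, 0.72 for Hyou1 and 0.66 for Hspa5, and 0.21 for Canx and 0.16 for Sil1. The median SD was 0.16 over the 7496 genes with a mean of 10 CPM or more. Without the 2 chow-fed Xbp1 LKO libraries the SD was 0.64 for Hyou1, 0.50 for Hspa5 and 0.42 for Sdf2l1.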
